A study of Mus musculus with 6 samples.

Results

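Accessible chromatin far from any transcription start was examined in primary smooth muscle cells of the mouse oviduct. The regions were chosen on the measured peak calls: a region had to lie on the reproducible peak list of the WT libraries and on that of the Pbrm1 cKO libraries, outside every annotated gene body, with its midpoint more than 50 kb from the nearest transcription start. Of 66679 regions obtained by merging both lists, 46152 were on both, and 1663 of these met all conditions (the members, 3.60% of the shared regions). The other shared regions comprised 17530 at promoters, 14001 in introns, 10641 in intergenic sequence within 50 kb of a start and 2317 in exons. Because being called in both genotypes was a condition, the presence of the members in WT and in Pbrm1 cKO is no finding.

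The cells came from oviducts of 8- to 12-week-old mice on day 2 of pregnancy, were cultured for some hours after digestion, and were profiled by ATAC-seq, in which the Tn5 transposase cuts and tags open DNA, with 50000 cells per library. WT denotes controls with floxed Pbrm1 (Pbrm1 fl/fl) and no Cre, and Pbrm1 cKO denotes the same floxed allele deleted by Cre from the progesterone receptor locus (PR-IRES-cre), with 3 libraries each. This Cre acts in every cell type that expresses the progesterone receptor, so the deletion is not restricted to smooth muscle. Whether each library came from a separate animal or from a pool was not given in the sources used here, so p-values measure the spread between these libraries, which may be technical.

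Open regions far from genes are often enhancers, stretches bound by sequence-specific transcription factors that act on promoters across large distances. AP-1, a dimer of Fos and Jun proteins, is a common enhancer factor in cultured mesenchymal cells, and CTCF marks the boundaries of chromatin loops. Pbrm1 encodes the BAF180 subunit of PBAF, a SWI/SNF complex that moves nucleosomes. HAND and GATA factors, RUNX, TEAD, serum response factor (through the CArG box) and the steroid receptors are other regulators of smooth muscle and of the reproductive tract.

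The sequences below are those of 200 bases or fewer around the summit of the members on which the results turn, read from the plus strand of GRCm38, with matches to the searched motifs on either strand in capitals and all other bases in lower case. The first is the member with the best rank over the 6 libraries, chr6:9889920-9890079 between Nxph1 and Ndufa4, and the next 3 are the best-ranked members that hold a CTCF core (chr12:10589695-10589894), an AP-1 motif (chr2:61139003-61139202) and a CArG box (chr17:80801781-80801980).
Nxph1-Ndufa4, best rank: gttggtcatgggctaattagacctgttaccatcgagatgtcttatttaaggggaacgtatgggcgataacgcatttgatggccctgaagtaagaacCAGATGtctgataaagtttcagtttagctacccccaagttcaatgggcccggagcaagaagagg
Rdh14-Kcns3, CTCF core: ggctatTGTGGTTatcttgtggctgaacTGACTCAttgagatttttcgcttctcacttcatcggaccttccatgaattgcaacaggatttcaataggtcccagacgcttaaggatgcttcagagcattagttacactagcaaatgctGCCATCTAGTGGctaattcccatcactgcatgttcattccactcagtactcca
Rbms1-Tank, AP-1: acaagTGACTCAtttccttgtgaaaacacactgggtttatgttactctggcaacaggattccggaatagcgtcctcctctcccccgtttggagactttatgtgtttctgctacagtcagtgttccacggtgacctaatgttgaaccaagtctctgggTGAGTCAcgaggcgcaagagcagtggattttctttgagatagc
Map4k3-Tmem178, CArG box: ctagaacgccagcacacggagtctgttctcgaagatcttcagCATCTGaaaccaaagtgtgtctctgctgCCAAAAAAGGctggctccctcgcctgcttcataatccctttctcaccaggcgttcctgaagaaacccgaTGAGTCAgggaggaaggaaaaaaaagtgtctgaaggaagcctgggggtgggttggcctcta

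In the Rdh14-Kcns3 sequence the CTCF core occupied bases 148 to 159, with an AP-1 motif at bases 29 to 35 and a RUNX motif at bases 7 to 13. The Rbms1-Tank sequence held 2 AP-1 motifs, at bases 6 to 12 and 158 to 164. The Map4k3-Tmem178 sequence held its CArG box at bases 71 to 80 beside an AP-1 motif at bases 140 to 146. The following 4 members had the 2 smallest p of each direction in the comparison of genotypes, the first 2 higher in Pbrm1 cKO (chr2:148535728-148535927 and chr13:78809790-78809989) and the next 2 lower (chr7:60492421-60492601 and chr11:7780646-7780845). The last sequence, chr11:13524016-13524215, is that of the member farthest from any start.
Cd93-Nxt1, higher: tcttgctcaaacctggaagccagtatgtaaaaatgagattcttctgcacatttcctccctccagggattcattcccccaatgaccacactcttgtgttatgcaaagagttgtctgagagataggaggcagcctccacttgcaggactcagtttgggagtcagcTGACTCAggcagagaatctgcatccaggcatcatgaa
Nr2f1-Arrdc3, higher: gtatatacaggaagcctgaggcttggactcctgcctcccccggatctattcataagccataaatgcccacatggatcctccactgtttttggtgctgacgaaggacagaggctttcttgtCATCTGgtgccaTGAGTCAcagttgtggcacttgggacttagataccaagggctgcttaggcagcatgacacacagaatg
Snrpn-Ndn, lower: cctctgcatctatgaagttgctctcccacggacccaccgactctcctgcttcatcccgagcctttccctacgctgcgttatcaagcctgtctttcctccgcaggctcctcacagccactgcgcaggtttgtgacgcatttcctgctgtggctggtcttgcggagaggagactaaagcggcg
Igfbp3-Tns3, lower: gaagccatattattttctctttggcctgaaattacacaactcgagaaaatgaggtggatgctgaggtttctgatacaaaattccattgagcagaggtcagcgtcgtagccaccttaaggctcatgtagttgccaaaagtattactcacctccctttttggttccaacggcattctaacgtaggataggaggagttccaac
Cobl-Pom121l12, farthest: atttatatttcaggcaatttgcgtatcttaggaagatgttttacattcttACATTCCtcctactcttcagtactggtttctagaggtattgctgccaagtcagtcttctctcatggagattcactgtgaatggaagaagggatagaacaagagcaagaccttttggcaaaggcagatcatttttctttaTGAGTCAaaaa

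Both of these higher sequences held an AP-1 motif, and neither of these 2 lower ones held any of the 10 motifs searched. Among the members next in each direction, the higher one (Cd47-Bbx) held none of the motifs and the lower one (Cdh2-Dsc3) held an AP-1 motif. The farthest sequence held an AP-1 motif at bases 190 to 196 and a TEAD motif at bases 51 to 57.

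The members lay at a median of 77.5 kb from the nearest start (quartiles 59.97 and 107 kb), and 1179 lay within 100 kb, 418 between 100 and 200 kb and 66 farther out. The nearest start belonged to a protein-coding gene for 430 members, and to a noncoding gene or pseudogene for the others. The farthest member, whose sequence is given above, lay 526 kb from a start and more than 1059 kb from Cobl and from Pom121l12, the protein-coding genes on either side. At the 50 kb limit the nearest members lay at 50.017, 50.0305 and 50.0615 kb, and the nearest shared intergenic regions not taken lay at 49.8925, 49.9245 and 49.998 kb.

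Open regions became sparser with distance. Shared intergenic regions numbered 14.5 per Mb of gene-free sequence at 5 to 10 kb from a start (95% Poisson interval 13.9 to 15.1), 8.69 per Mb at 25 to 50 kb (8.33 to 9.05), 5.22 per Mb at 50 to 100 kb (4.92 to 5.52), 3.12 per Mb at 100 to 200 kb (2.83 to 3.44) and 1.49 per Mb beyond 200 kb (1.15 to 1.89). These intervals cover counting error only. Over all 404 Mb of gene-free sequence beyond 50 kb the members made 4.12 per Mb. By chromosome the density was highest on chromosome 13, with 110 members and 7.21 per Mb, and lowest on the X chromosome, with 36 members and 1.09 per Mb, while the other autosomes lay between 3.02 and 6.06 per Mb.

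**Figure D1:**
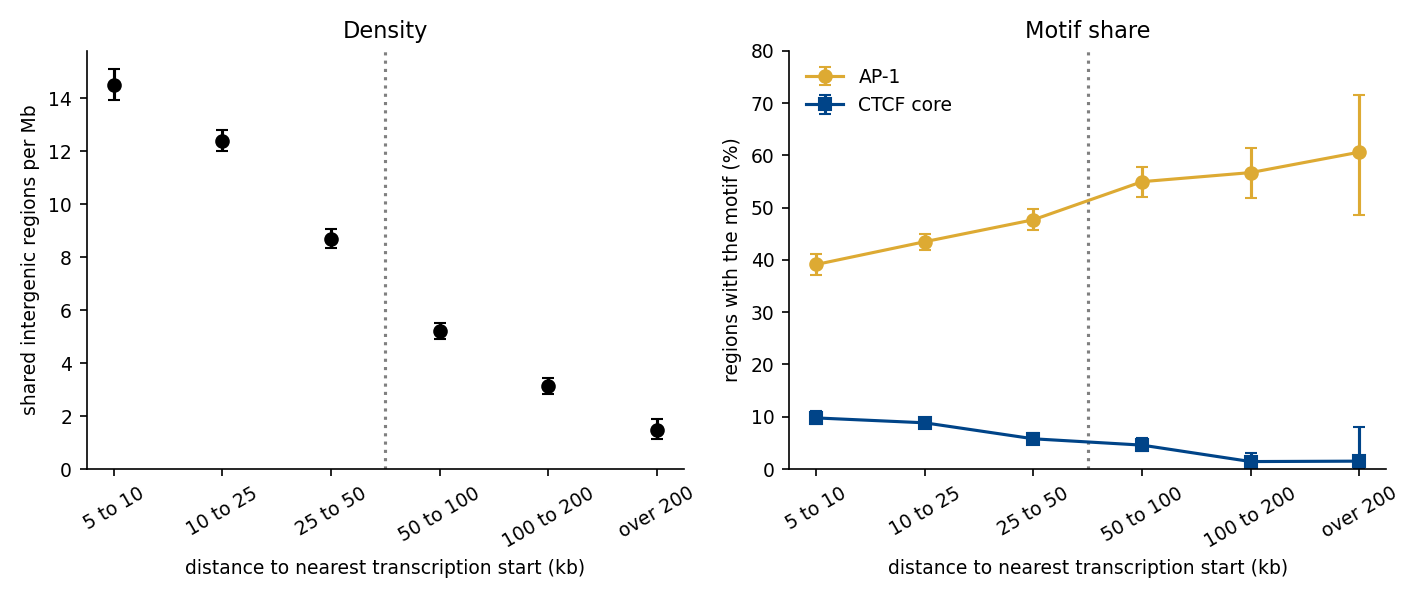
Left, shared intergenic regions per Mb of gene-free sequence by distance to the nearest transcription start in kb; right, percent of those regions with an AP-1 motif or a CTCF core in the 200 bp around the summit. Points are values and bars 95% intervals; the dotted line marks 50 kb, to the right of which lie the members. Density falls from 14.5 to 1.49 per Mb and the AP-1 share climbs from 39.1% to 60.6%. The CTCF share falls from 9.78% to 1.44% at 100 to 200 kb and is 1.52% beyond 200 kb (66 regions).

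AP-1 was the most frequent motif searched. The sequence TGANTCA stood within 200 bp centred on the summit in 925 of 1663 members, 55.6% (95% Wilson interval 53.2 to 58.0%), against 42.2% of shared intergenic regions within 50 kb (41.3 to 43.1%), 48.4% of shared intronic regions, 12.0% of shared promoter regions and 34.0% of all merged regions. In windows of equal length placed 1 kb to either side of the members the share was 6.04% (5.28 to 6.90%). The motif gathered at the summit: of 1877 matches within 500 bp, 773 (41.2%) were within 50 bp. Among shared intergenic regions the share was 39.1% at 5 to 10 kb, 47.7% at 25 to 50 kb, 54.96% at 50 to 100 kb, 56.7% at 100 to 200 kb and 60.6% beyond 200 kb. The last rests on 66 regions and has an interval of 48.5 to 71.5%, which overlaps those of the classes at 50 to 100 kb and 100 to 200 kb.

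The CTCF core was less frequent in the members than in intergenic regions nearer to starts. It was present in 61 members, 3.67% (2.87 to 4.68%), against 8.66% of shared intergenic regions within 50 kb (8.14 to 9.21%), 5.68% of intronic regions, 2.41% of promoter regions, 5.16% of all merged regions and 0.0902% of the windows beside the members. With at most 1 mismatch allowed the shares were 10.3% of members (8.97 to 11.9%) and 21.5% of regions within 50 kb (20.8 to 22.3%). The strict share was 9.78% at 5 to 10 kb from a start, 5.79% at 25 to 50 kb, 4.58% at 50 to 100 kb and 1.44% at 100 to 200 kb. Beyond 200 kb it was 1.52% on 66 regions (0.268 to 8.10%), so no further fall was seen there. With at most 1 mismatch the share was 6.70% at 100 to 200 kb and 9.09% beyond 200 kb (4.23 to 18.4%). Of the members with a CTCF core, 3 also held an AP-1 motif and 58 did not.

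The other motifs were less frequent. The HAND-type E-box CATCTG was found in 22.1% of members and in 13.7% of the windows beside them, the TEAD motif ACATTCC in 7.22% and 3.28%, the RUNX motif TGTGGTT in 6.92% and 4.36%, and the GATA motif AGATAAG in 4.63% and 3.10%. The GC box GGGCGG, bound by SP and KLF factors, was in 5.17% of members and 49.5% of promoter regions. For 4 motifs the intervals of the members and of the windows beside them overlapped: GATA (3.72 to 5.75% and 2.56 to 3.74%), the CArG box (1.44% and 1.05%), the steroid receptor element (0.481% in both) and the palindromic NFI element (1 member and 0 windows). In all merged regions the shares were 15.9% for the E-box, 5.12% for TEAD, 5.31% for RUNX, 2.53% for GATA, 19.2% for the GC box, 1.15% for the CArG box, 0.346% for the steroid receptor element and 0.0450% for NFI. No motif of the 10 was found in 376 members (22.6%). Both strands were searched, motifs were counted independently so that matches may overlap, and a match is a string of letters, not a measured binding site.

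**Figure D2:**
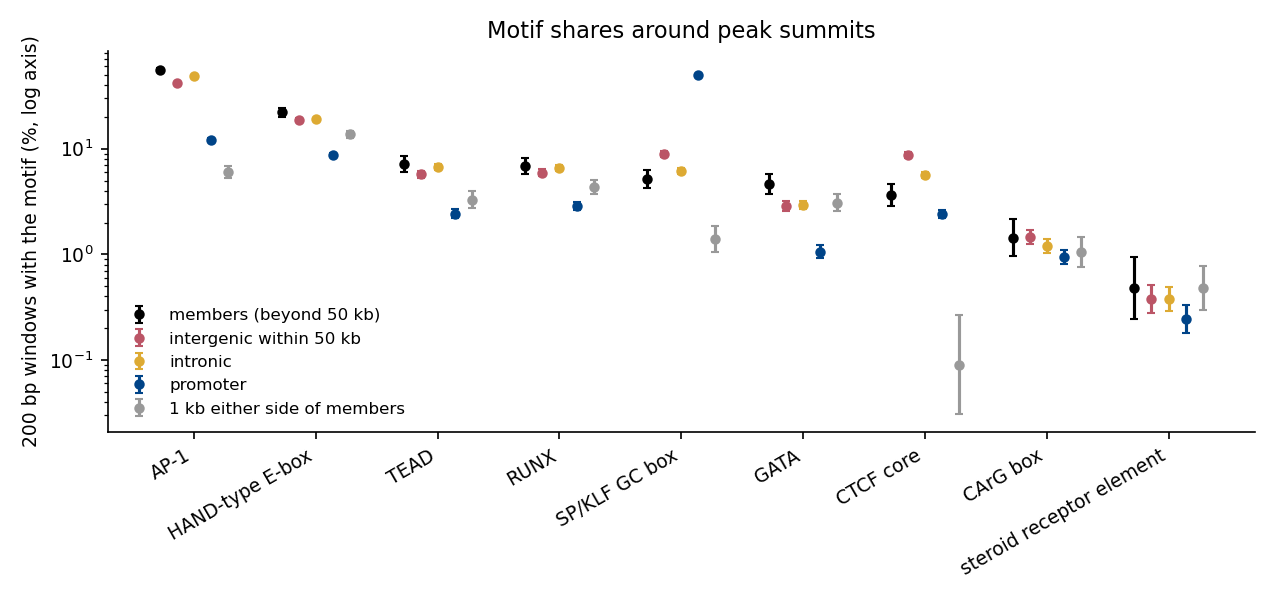
Percent of 200 bp windows with each motif, on a log axis, around the summits of the members, of shared intergenic regions within 50 kb, of shared intronic and shared promoter regions, and in windows 1 kb either side of the members. Bars are 95% Wilson intervals; the AP-1 share of the members, 55.6%, is the highest of the 5 groups, and the GC box is highest at promoters, 49.5%.

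The base composition also differed between classes. The GC content of the summit windows was 46.7 ± 6.11% in the members (mean ± SD over regions), 49.8% in shared intergenic regions within 50 kb, 48.7% in introns and 61.4% at promoters. By distance its mean fell from 50.6% at 5 to 10 kb to 44.7% beyond 200 kb. Members with 28 to 42.5% GC held a CTCF core in 1.64% and an AP-1 motif in 61.7%. At 51 to 80.5% GC these shares were 6.40% and 44.8%. The part of base composition in the motif shares by distance was not tested. The members were 564 bp wide at the median (range 176 to 1555 bp) against 481 bp over all merged regions, and 10.6% of their sequence was marked as repeats on average.

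The strength of a region was measured by its place among the 66679 regions of a library when ordered by −log10 p, with rank 1 the best. The median rank percentile (0 is best) of the members was 43.0, 41.1 and 46.3 in WT libraries 1, 2 and 3, and 45.3, 45.4 and 45.7 in Pbrm1 cKO libraries 1, 2 and 3. The members thus stood close to shared intronic regions (43.0 to 46.7 in WT and 42.4 to 43.6 in Pbrm1 cKO libraries) and far behind promoters (17.0 to 20.3 and 18.2 to 19.4). All 1663 members had an entry in at least 5 libraries and 1653 in all 6; 9 of the other 10 lacked one in WT library 3. That library was the shallowest, with a median of 15 tags over a member's summit against 25 to 29 in the other 5.

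**Figure D3:**
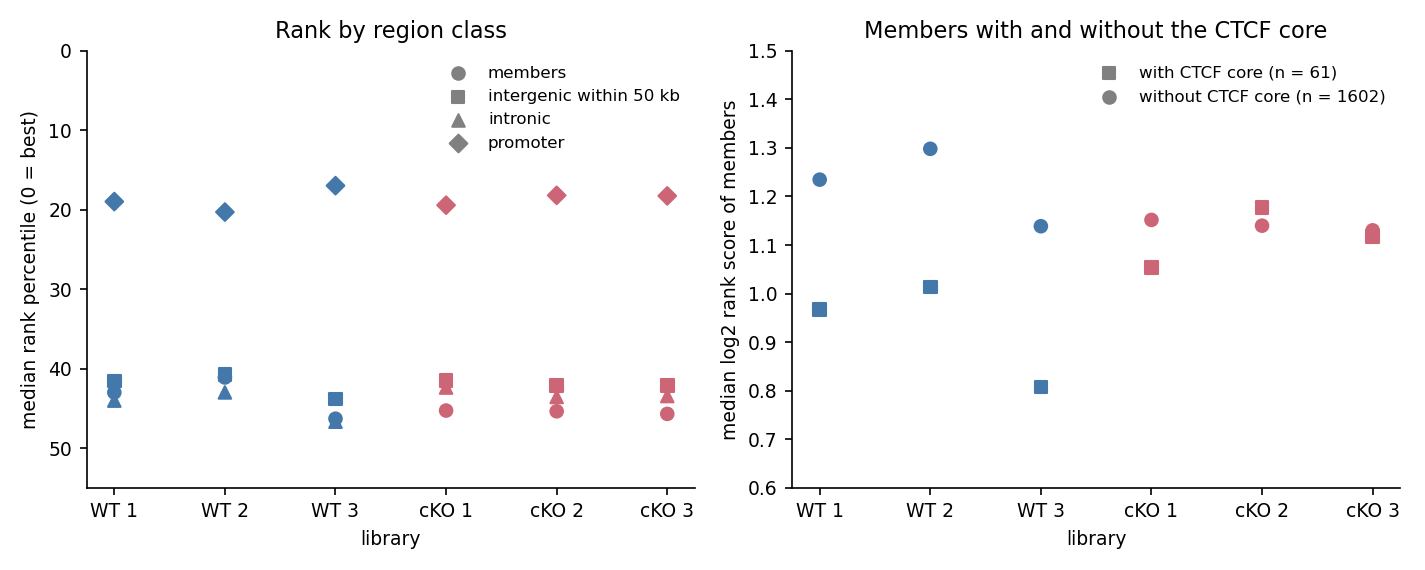
Left, median rank percentile in each library (0 is best, axis inverted) of the members and 3 other classes of shared regions; right, median log2 rank score in each library of the members with a CTCF core (squares, n = 61) and without one (circles, n = 1602). WT libraries are blue and Pbrm1 cKO libraries red; with the core, the WT medians of 0.81 to 1.01 lie below the Pbrm1 cKO medians of 1.05 to 1.18.

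The best-ranked member, between Nxph1 and Ndufa4 (chr6:9889920-9890186), ranked 19, 11 and 14 in WT and 10, 12 and 15 in Pbrm1 cKO libraries. Its 267 bp matched the mitochondrial genome over their whole length at 95.9% identity, and it was the only member that did. It also had 4 near-identical copies on other chromosomes (at least 90% identity over at least 80% of its length), and the region over the copy on chromosome 12 ranked 1 to 3 in every library. Reads from mitochondrial DNA and from the copies cannot be told apart from its own in these lists.

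The members ranked from the third to the eighth had no copy. The third was the Rbms1-Tank member shown above (mean rank 3561). The fourth, chr11:89186569-89187883, lay 113 kb from Nog, which encodes the BMP antagonist noggin, and had a mean rank of 3729. The fifth, chr1:40139749-40140579, stood between the interleukin 1 receptor genes Il1r2 and Il1r1 (mean rank 3755), and the sixth, chr11:19835178-19835808, between the homeobox gene Meis1 and Spred2 (mean rank 4321). The last 2 named by rank were chr15:33906667-33907603 between Tspyl5 and Mtdh (4328) and chr10:102622531-102623342 between Rassf9 and the homeobox gene Alx1 (4409). An AP-1 motif was present in all 6 of the third to eighth, but not in the best-ranked member. None of these 6, nor the best-ranked member, passed the threshold between genotypes, with adjusted p from 0.339 to 0.990 (limma).

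The members were unevenly spread among genes. The stretches between neighbouring protein-coding genes that held at least 1 member numbered 710, and 331 of these held exactly 1. At the other end, 9 stretches held 10 or more, with 105 members in all. The stretch with most, between Klf4, a zinc-finger factor that represses smooth muscle differentiation genes, and Actl7b, spanned 1208 kb and held 14 members, the nearest 186 kb from Klf4. The stretch between Gata6, a GATA factor of smooth muscle and endoderm, and Rbbp8 held 13 over 548 kb. There were 12 each between Bbs9 and Bmper (a BMP-binding secreted protein), between Runx1 and Setd4 and between Rasgrp1 and Thbs1 (thrombospondin 1). There were 11 each between Lyplal1 and Tgfb2 (a TGF-beta ligand) and between Pard3 and Nrp1 (a co-receptor for semaphorins and VEGF), and 10 each between Syk and Auh and between Adamts5, an aggrecan-cleaving protease, and N6amt1.

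Within these stretches the members ranged from strong to weak. The 11 members beside Tgfb2 had the best median rank percentile of the 9 stretches, 30.7, with single members from 14.8 to 75.6; by library their median was 23.6, 28.7 and 35.0 in WT and 30.6, 33.4 and 28.9 in Pbrm1 cKO. The 10 members beside Adamts5 had the lowest, 54.1, with library medians of 46.4, 44.4 and 40.8 in WT and 47.0, 54.1 and 64.4 in Pbrm1 cKO. The groups of libraries overlapped beside Tgfb2 and did not overlap beside Adamts5. They also did not overlap for the 12 members between Bbs9 and Bmper, which ranked better in Pbrm1 cKO. Library medians there were 43.1, 47.2 and 47.9 in WT and 35.8, 40.5 and 36.9 in Pbrm1 cKO. In all other stretches of the 9 the groups overlapped. No member passed the threshold beside Adamts5 (smallest adjusted p = 0.414, limma) or between Bbs9 and Bmper (0.376, limma). Among all single regions the groups did not overlap in 21.5%, so no weight is put on these separations. The members beside Klf4 were split, with 8 holding an AP-1 motif and 10 of 14 ranking lower in Pbrm1 cKO, none past the threshold (smallest adjusted p = 0.227, limma).

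**Figure D4:**
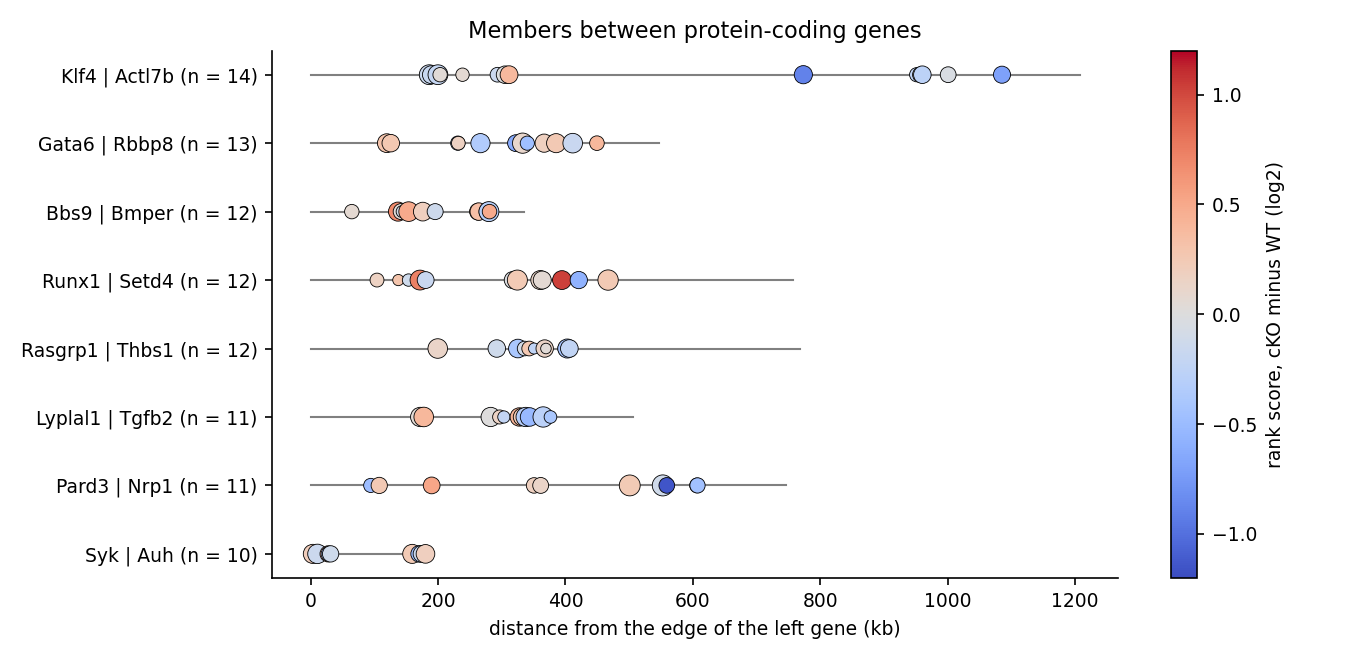
Members in the 8 stretches between protein-coding genes that hold most of them, by distance in kb from the edge of the left gene. Grey lines span each stretch, larger circles have better ranks, and colour gives the Pbrm1 cKO minus WT difference of the rank score; blue and red circles are mixed in each of the 8 stretches.

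Among genes known for the development of this tissue, many bordered a stretch with members. Of 60 transcription factors of Müllerian duct and mesenchyme development, 28 (46.7%) had at least 1 member on either side before the next protein-coding gene, and 12 (20%) had 5 or more. Of 26 signalling genes it was 14 (53.8%), of 6 steroid receptor genes 2, of 25 prostaglandin genes 3 and of 19 smooth muscle contractile and regulatory genes 1, against 1307 of 21924 protein-coding genes (5.96%). The median length of the longest bordering stretch was 348 kb for the transcription factors and 375 kb for the signalling genes, against 26.8 kb for all protein-coding genes and 25.0 kb for the smooth muscle genes. The part that gene-free length plays in these counts was not tested.

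After Klf4, Gata6 and Runx1, the transcription factors with many members included Sox9 (8), Meis1, Zeb1 and Zeb2 (7 each) and Osr1 and Tshz3 (6 each). All 8 members beside Sox9 held an AP-1 motif. Of the signalling genes, Bmper had 18 over both sides and Cxcl12, Fgf9, Gdf6 and Inhba 6 each. Hand2, a progesterone-responsive factor of the uterine stroma, had 3 members at 130, 236 and 307 kb. The strongest of these, chr8:57013689-57014262, had rank percentiles of 19.5, 37.6 and 23.9 in WT and 29.2, 25.4 and 22.7 in Pbrm1 cKO libraries, which overlapped (difference 0.02, adjusted p = 0.988, limma). The smooth muscle gene with members was Myocd, the coactivator of serum response factor, with 7 at 174 to 291 kb. The strongest, chr11:65443420-65443987, stood at percentiles 12.6, 6.77 and 7.46 in WT and 13.5, 13.8 and 13.3 in Pbrm1 cKO (adjusted p = 0.413, limma). The prostaglandin genes with a member were Abcc4, Hpgd and Ptger4, and Nr3c1, the glucocorticoid receptor gene, had 2. No member beside any gene of these lists passed the threshold, and the smallest adjusted p was 0.0906.

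The genotypes were compared by the rank score, log2 of the number of regions divided by the rank, in which a difference of 1 is a 2-fold change in rank number. 1 member of 1663 passed an adjusted p of 0.05 (limma over all 66679 regions), and it was lower in Pbrm1 cKO; over all regions 45 passed (0.0675%). At an unadjusted p of 0.05 there were 175 members (10.5%), 43 higher and 132 lower, beside 15.9% of all regions, and for 315 members (18.9%) the libraries of the genotypes did not overlap, beside 21.5% of all regions. Since the members had to be called in both genotypes, no weight is put on these shares. With normal scores in place of the log2 scale, 19 of 1663 members passed, 5 higher and 14 lower. Over all 66679 regions 1551 passed (2.33%), 662 higher and 889 lower.

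The median member stood slightly lower in Pbrm1 cKO. The median difference was -0.057 over the members, 0.001 over all merged regions, -0.002 over shared intergenic regions within 50 kb and 0.021 over shared intronic regions. A negative difference was seen in 928 of the 1663 members (55.8%), beside 49.96% of all merged regions. The share was 50.2% in shared intergenic regions within 50 kb and 47.7% in shared intronic regions. The median difference of the members is within the spread of the libraries. Their median scores were 1.22, 1.28 and 1.11 in WT and 1.14, 1.14 and 1.13 in Pbrm1 cKO, an SD of 0.061 within genotypes. Without 1 library the median difference moved. It was -0.016 without WT library 2 and -0.113 without WT library 3, the shallow library.

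The member that passed, between Snrpn and Ndn (chr7:60492421-60492630), both imprinted genes, ranked 11210, 11585.5 and 11253 in WT and 45802, 36346.5 and 59121 in Pbrm1 cKO libraries, without overlap. Its summit carried 43, 40 and 26 tags in WT and 18, 19 and 11 in Pbrm1 cKO. The difference was -2.02 (SE 0.32, adjusted p = 0.0218, limma), lower in all 3 Pbrm1 cKO libraries. On the log2 scale the member missed the threshold when any 1 library was left out (adjusted p 0.0539 to 0.165, limma). With normal scores it passed in each of those fits (adjusted p 0.00249 to 0.0234, limma). It had 3 near-identical copies on the same chromosome, at 90.1 to 94.3% identity. The copy at 92.3% identity overlapped a region of the merged set (chr7:60244282-60244718, not on both lists) that moved the other way, with ranks of 57389, 63990 and 56250.5 in WT and 15747.5, 18867.5 and 14287.5 in Pbrm1 cKO (difference 1.87, adjusted p = 0.0238, limma). The closer copy, at 94.3% identity, overlapped another merged region (chr7:60391299-60391503, not on both lists). Its difference was 0.26 (adjusted p = 0.421, limma). How reads are divided among these copies was not tested, and the call at the Snrpn-Ndn member is uncertain for that reason.

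The members next in each direction by p did not pass. On the higher side, the Cd93-Nxt1 member (chr2:148535611-148536037) ranked 34583, 47821.5 and 44583.5 in WT and 15591, 15758.5 and 17723 in Pbrm1 cKO libraries, a difference of 1.36 (SE 0.31, adjusted p = 0.0892, limma). The Nr2f1-Arrdc3 member (chr13:78809611-78810134) ranked 39943.5, 49597 and 59996.5 against 22613.5, 16809 and 19942 (1.32, SE 0.31, adjusted p = 0.0906, limma). The third, between Cd47 and Bbx (chr16:50045912-50046607), had a difference of 1.43 (SE 0.36, adjusted p = 0.0976, limma). In each of these 3 the libraries of the genotypes did not overlap, as in 21.5% of all regions. They were chosen by their p, so the lack of overlap adds no support.

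On the lower side, the Igfbp3-Tns3 member (chr11:7780509-7781163) ranked 23463, 28423.5 and 24116 in WT and 51285.5, 57391 and 62893.5 in Pbrm1 cKO libraries (-1.17, SE 0.26, adjusted p = 0.0866, limma). Igfbp3 encodes a binding protein of insulin-like growth factors and Tns3 a focal adhesion protein. A member between the cadherin genes Cdh2 and Dsc3 had a difference of -1.34 (SE 0.31, adjusted p = 0.0906, limma). With normal scores all 6 of these members passed, with adjusted p from 0.00214 to 0.0289.

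**Figure D5:**
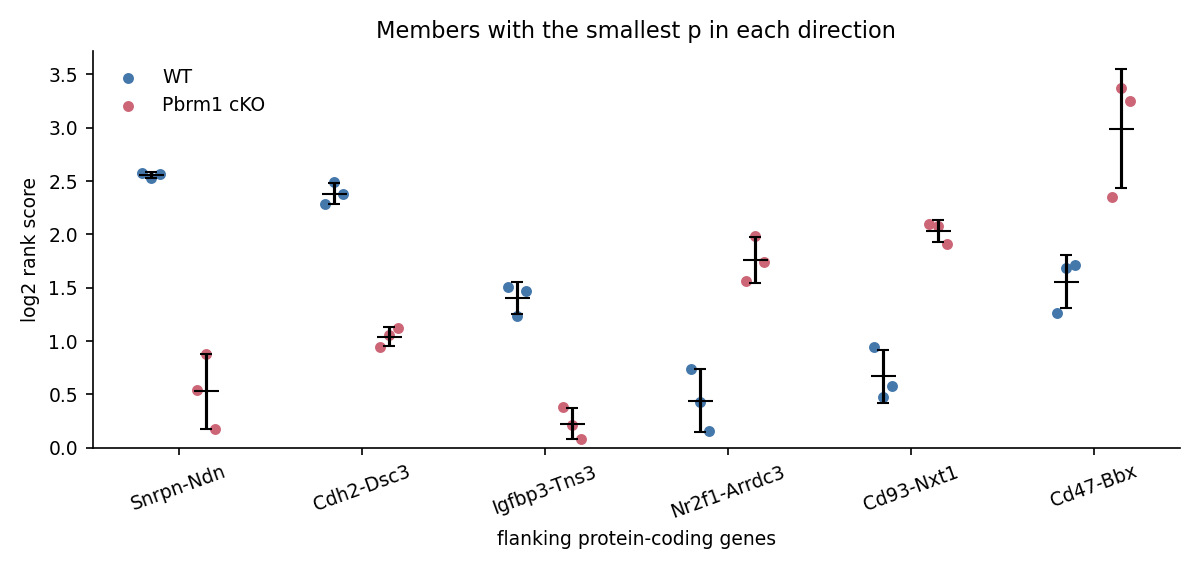
Log2 rank score of the 3 members with the smallest p in each direction, lower (left) and higher (right) in Pbrm1 cKO, named by the protein-coding genes on either side. Points are libraries (WT blue, Pbrm1 cKO red, 3 each), bars the mean ± SD; the Snrpn-Ndn member, the one past the threshold, falls from a mean of 2.56 to 0.53.

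The differences of the members with a CTCF core leaned to the higher side. The median difference was 0.17 over the 61 with the core and -0.07 over the 1602 without it. With the core, the library medians of the rank score were 0.97, 1.01 and 0.81 in WT and 1.05, 1.18 and 1.12 in Pbrm1 cKO, which did not overlap; without it they were 1.23, 1.298 and 1.14 in WT and 1.15, 1.14 and 1.13 in Pbrm1 cKO, which overlapped. Of the 61, 40 (65.6%) were higher in Pbrm1 cKO, and none passed the threshold (smallest adjusted p = 0.204, limma). The libraries of the genotypes did not overlap for 7 of the 61, all higher, and without the core for 96 that were higher and 212 that were lower, of 1602, beside 21.5% of all regions. Leaving out 1 library in turn kept the median with the core between 0.085 (without Pbrm1 cKO library 2) and 0.23, and that without the core between -0.12 and -0.024. The same sign was seen in shared intergenic regions within 50 kb (0.13 with and -0.015 without the core), introns (0.15 and 0.013) and promoters (0.093 and -0.028), which were measured in the same libraries.

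Members with a CTCF core were also narrower (median 313 against 573 bp), higher in GC (50.4 against 46.6%) and lower in rank (median percentile 52.2 against 46.4). The part of width, GC and rank in the difference was not tested. By the other motifs the median difference was -0.089 with and -0.028 without AP-1, -0.15 and -0.047 for TEAD, and -0.010 and -0.058 for RUNX.

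Among the 81 stretches that held 5 or more members (547 in all), the median difference was below 0 in 49. The extremes, chosen after their values were seen, were the 5 members between Gmds and Mylk4, with a median of -0.65 and all 5 lower in Pbrm1 cKO, and the 8 between Cd47 and Bbx, with a median of 0.45. All members were lower in 5 of the 81 stretches and all were higher in 0, and no member in a stretch of 10 or more passed the threshold.

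The label of the cells was checked at the promoters of marker genes. Of 7 smooth muscle markers 6 had an open region within 1 kb of a start (Acta2, Myh11, Tagln, Cnn1, Des and Lmod1, but not Actg2), at mean rank percentiles of 29.1 to 72.6. All 5 mesenchyme and fibroblast markers had one (10.2 to 57.2), as had all 3 endothelial markers (31.5 to 71.5) and 2 of 3 immune markers (33.9 and 58.6, with none at Ptprc). Of 6 epithelial markers 1 had one (Foxj1, 6.58), and none was listed at Epcam, Krt8, Krt18, Pax8 or Ovgp1. No marker promoter passed the threshold between genotypes (smallest adjusted p = 0.409, limma). The part of other cell types in the members was not tested.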

How the data were processed

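The deposited files list peaks. The authors aligned paired-end ATAC-seq reads to GRCm38 with the ENCODE pipeline (cutadapt, Bowtie2 and MACS2 in the submitters' processing notes) and deposited a relaxed list per library, of up to 300000 entries, and a conservative irreproducible discovery rate (IDR) list per genotype, with −log10 p above that of the single libraries in nearly all regions. Each entry holds the authors' fold enrichment over background (a ratio), the authors' −log10 p and −log10 q, and a deposited score that rescales them; some summit positions deposited by the authors were absolute and were not used. Read counts were not used here, so the DESeq2 comparison of the study's methods was replaced by ranks, which cannot show a change common to a whole library.

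Overlapping entries were merged within and then between both IDR lists, by 1 bp. Genes and starts came from GENCODE M21 and sequence from RefSeq GRCm38. Each merged region was ranked per library by its best −log10 p, with no entry tied at the lowest rank, and limma 3.58.1 in R 4.3.3 (eBayes with trend) was fitted to log2(66679/rank) over all regions, with Benjamini-Hochberg adjustment at 0.05. The tags over each summit were computed from its fold and p, and gave whole numbers for 100% of entries (median 8 to 15 per library); total depth is unknown. The procedures were tested on simulated data. For the rank comparison these had the same spread in every library and region, so unequal depth and spread were not covered. A region that misses the threshold is not shown to be equally accessible. Motifs were searched in 200 bp around the best summit, and copies with blastn 2.17.0. Wilson and Poisson intervals (95%) cover counting error only.

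Regions were named by rule: members past the threshold, or the 3 with the smallest p per direction; the 8 best-ranked; the 3 farthest; the 3 on each side of 50 kb; and the stretches with most members. Some items that the rule or the lists name are not reported here. The members, gene lists and motifs were chosen with earlier results of these data known. Same-numbered libraries did not deviate together (correlations -0.0549 to 0.00906), so no pairing was used.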

Additional observations from a re-analysis of the deposited data

How the results depend on the processing

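The number of members was 3926 at 25 kb, 484 at 100 kb and 6173 with protein-coding genes only, and their density was 5.91, 2.72 and 6.29 per Mb. The CTCF core share was 2.04% in 100 bp and, in an alternative chosen after seeing the data, 10.3% with 1 mismatch; the AP-1 share was 38.5% in 100 bp and 60.9% in 400 bp. The median rank percentile was 41.1 with ranks by fold and 44.8 in WT libraries only, and 45.9 to 47.3 when 1 library was left out. Stretches with many members held 48 members when all GENCODE genes were bounds, 547 at 5 or more and 0 at 20 or more.

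Members past the threshold numbered 19 with normal scores (5 higher, 14 lower), 0 with ranks by fold and 0 without a variance trend. Over all regions the counts were 1551, 4 and 2. When 1 library was left out, 0 members passed in each case on the log2 scale, beside 2 to 20 of all regions. With normal scores the numbers were 4, 10 and 13 members without WT libraries 1, 2 and 3, beside 425, 750 and 1772 regions. Without Pbrm1 cKO libraries 1, 2 and 3 they were 2, 2 and 7, beside 151, 309 and 1118. With the replicate block, a fit that pairs same-numbered libraries, 2 members passed, both lower, beside 131 of all regions (66 higher, 65 lower). With normal scores and the block 22 members passed, beside 1415 of all regions. The labels do not say whether same-numbered libraries belong together, and their deviations did not correlate, which does not show that they share no batch. The median difference ranged from -0.113 to -0.0164 when 1 library was left out. The Snrpn-Ndn call missed the threshold in those 6 fits on the log2 scale, with ranks by fold (adjusted p = 0.0798, limma) and without a trend (0.0906). It passed with the replicate block (adjusted p = 0.00766, limma) and, on normal scores, in each fit without 1 library (0.00249 to 0.0234). The cause of these moves was not tested. A half-overlap rule, a stricter list, regions with entries in all 6 libraries and leaving out the 12 members with copies kept counts within 1.5 times. The shallow WT library 3 and the lack of read counts limit what differences could be detected.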
